A study of Mus musculus with 16 samples.

Results

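The respiratory chain and ATP synthase of the heart were followed through 110 probes for 87 genes, out of 25697 probes and 16593 named genes on the array. The probes were taken by name: every probe whose annotated gene symbol begins with Nduf, Uqcr or Atp5, or with Cox followed by a digit of the nuclear subunits (Cox4 to Cox8), plus those of Sdha, Sdhb, Sdhc, Sdhd, Cyc1 and Cycs. RNA of 16 hearts, from C57BL/6 mice aged 18 weeks, was read on Illumina MouseRef-8 arrays, with an array for each mouse and 4 mice in each of 4 groups: female cs-ERα-/-, female WT, male cs-ERα-/- and male WT. All mice carried floxed ERα alleles (ERα flox/flox), and in cs-ERα-/- mice the gene was deleted by a Cre recombinase under the α-MHC promoter, which is active in cardiomyocytes. The methods do not describe WT mice with Cre, so Cre and the loss of ERα cannot be told apart. Each array read RNA of pulverized heart, so that fewer cells of a type and less RNA per cell cannot be told apart either.

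Complexes I to IV of the inner mitochondrial membrane pass electrons from NADH and succinate to oxygen, all but complex II pump protons on the way, and ATP synthase, also called complex V, uses the returning protons to make ATP. Complex I oxidizes NADH and complex II succinate, complex III passes the electrons to cytochrome c, and complex IV hands them to oxygen. The heart makes most of its ATP in this way, and its muscle uses its own isoforms of several complex IV subunits, such as Cox6a2, Cox7a1 and Cox8b. The mitochondrial genome encodes the rest of the subunits, which none of these probes read.

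A probe was tested when at least 3 arrays of 1 group showed it above the negative control beads, at a detection p under 0.05, and 97 of the 110 probes, for 80 of the 87 genes, did so, among 12246 probes in all. Of the tested probes, 40 read complex I (31 genes), 5 complex II (3 genes), 8 complex III (7 genes), 2 cytochrome c, 18 complex IV (16 genes, with Ndufa4, now placed in that complex) and 16 ATP synthase (15 genes). A further 8 probes carry such names but are annotated to no subunit: those of the assembly factors Ndufaf1, Ndufaf3, Ndufaf4, Ndufaf5 and Ndufaf7, the supercomplex factor Cox7a2l and the pseudogene Ndufs5-ps. Which RNA the Ndufs5-ps probe bound was not tested. No probe of Atp5k, Cox7b2, Cox8c, Ndufab1, Ndufs1, Uqcrfs1 or Uqcrq passed, and 1 probe each of Atp5j, Cox6b2, Ndufb11 and Sdhc and 2 of Ndufaf7 failed beside a probe of the same gene that passed. Ndufs1, Uqcrfs1 and Uqcrq, subunits without which complexes I and III cannot work, were detected on 0 of 16 arrays, and a probe at background is not read here as missing RNA. Sdha, the flavoprotein of complex II, has no annotated probe.

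The arrays had median signals of 17.2 to 25.6 and 11492 to 12610 detected probes, of which 96 to 99 were members, and pairs of arrays correlated at 0.988 to 0.995. Esr1, which encodes ERα, was detected by neither of its probes on any array, so the deletion cannot be checked here. Sex labels were borne out by Eif2s3y, a gene of the Y chromosome, detected on 8 arrays, all of males, and Xist on 8, all of females. Myh6, the α-MHC gene, was detected on 16 of 16 arrays. Members were bright: their median probe stood at percentile 98.5 of all tested probes in mean signal, and 71 of the 97 lay above percentile 90. Their spread between mice of a group was small, with a median SD of 0.09 on the log2 scale against 0.15 over all tested probes. Before normalization the brightest members came near the highest signal of an array, which was 46583 to 62096 (Atp5g3 read 41400 to 61700). Normalization by quantiles then gives all arrays the same set of values. How far this narrowed the spread of members and the intervals given below was not tested.

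RNA levels of the respiratory chain in cs-ERα-/- hearts were close to those in WT hearts. Averaged over the sexes, the difference between cs-ERα-/- and WT hearts passed an adjusted p under 0.05 for 0 of 97 member probes, against 3.74% of all tested probes (limma, Benjamini-Hochberg over all probes tested). An ordinary linear model without moderation called 2 of them (2.06%, against 2.64% of all tested probes). In limma 14 had an unadjusted p under 0.05, which is 14.4% of the members against 17.6% of all tested probes. Of these, 3 (3.09% of members) were higher and 11 (11.3%) lower in cs-ERα-/- hearts, against 9.04% and 8.53% of all tested probes. The 95% interval of the difference lay within 1.2-fold either way for 84 of the 97 members (86.6%, against 58.9% of all tested probes) and within 1.5-fold for 97 of 97. The median interval reached 0.089 on the log2 scale to either side of its estimate. Differences of single members ran between -0.27 (Cox4i2) and 0.32 (a dim probe of Cycs). No member separated the 8 cs-ERα-/- hearts from the 8 WT hearts, which 0.596% of all tested probes did.

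**Figure D1:**
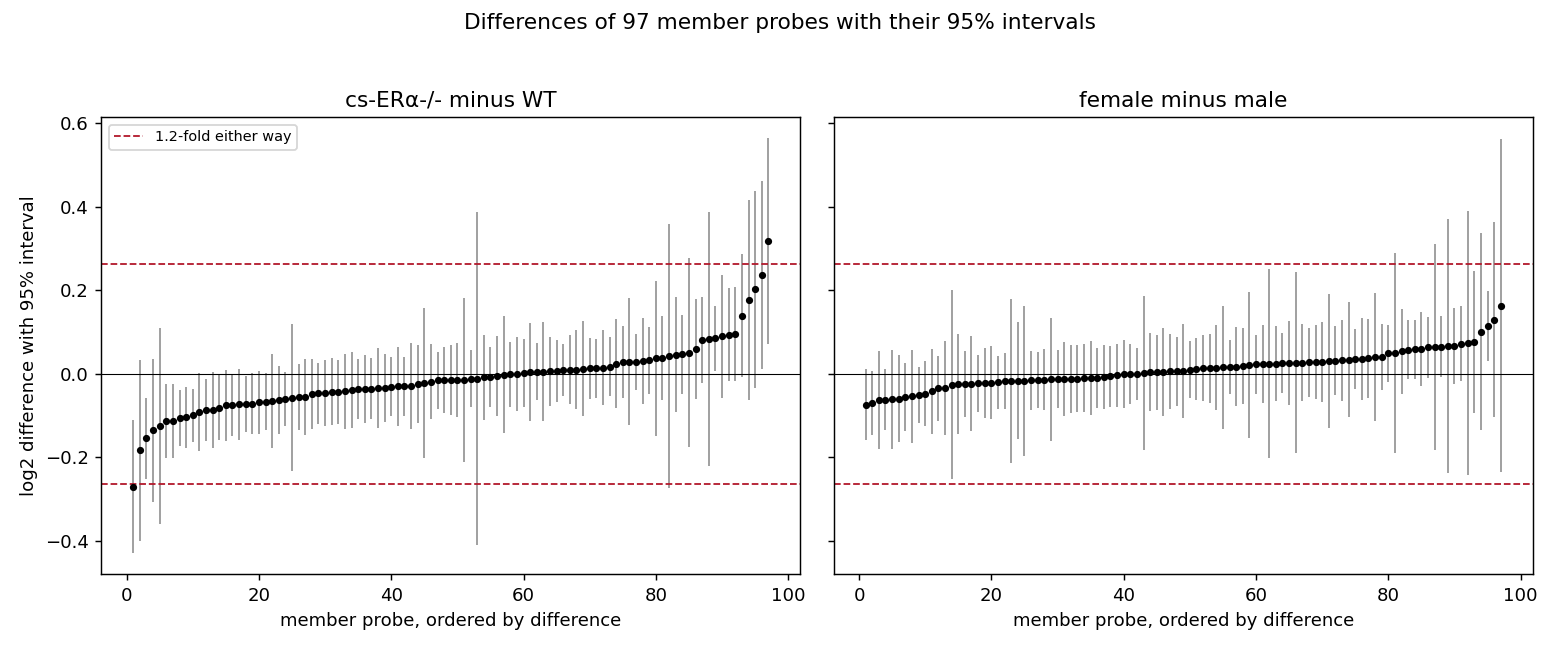
Log2 difference of each of the 97 member probes with its 95% interval, cs-ERα-/- minus WT on the left and female minus male on the right, probes ordered by difference and 1.2-fold marked by dashed lines. The intervals of 84 members lie within 1.2-fold either way for genotype and those of 90 for sex.

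Differences of each complex were small. The median difference between cs-ERα-/- and WT hearts was -0.034 over the 40 probes of complex I, -0.032 over the 8 of complex III, -0.020 over the 16 of ATP synthase and 0.0051 over the 18 of complex IV, beside -0.0058 over all tested probes. It was -1e-04 over the 5 probes of complex II, with quartiles of -0.05 and 0.20. The 2 probes of cytochrome c, which differed by 0.0035 and 0.32, had a median of 0.16. In complex I 31 of 40 probes had a negative difference, against 52.4% of all tested probes. At an unadjusted p under 0.05, 4 of the 40 were lower (10%, against 8.53% of all tested probes).

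Cox4i2, an isoform of complex IV subunit 4 that low oxygen induces, had the smallest p among the members for genotype. Its log2 signals were 7.36, 7.38, 7.19 and 7.13 in female cs-ERα-/- hearts, against 7.59, 7.62, 7.57 and 7.37 in female WT hearts. In male cs-ERα-/- hearts they were 7.05, 7.50, 7.37 and 7.03, against 7.41, 7.47, 7.57 and 7.58 in male WT hearts. In both sexes the groups overlapped, in females at a single WT heart and in males at the second cs-ERα-/- heart. The difference over the sexes was -0.27 (standard error 0.08, 95% interval -0.43 to -0.11, adjusted p = 0.0528 from limma), and it was the same, -0.27, within females and within males. Over the alternative settings and with single arrays left out, its adjusted p ran between 0.0212 and 0.249.

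Atp5g2 is 1 of 3 genes, with Atp5g1 and Atp5g3, for the c subunit, whose copies form the rotating ring of ATP synthase. The Atp5g2 log2 signals were 12.31, 12.50, 12.31 and 12.62 in female cs-ERα-/- hearts, against 12.58, 12.56, 12.68 and 12.47 in female WT hearts. They were 12.46, 12.41, 12.38 and 12.27 in male cs-ERα-/- hearts, against 12.49, 12.58, 12.56 and 12.60 in male WT hearts. Males were fully separated by genotype, by a narrow gap, and females were not. Atp5g2 averaged 12.41 ± 0.12 (SD, n = 8) in cs-ERα-/- hearts against 12.56 ± 0.07 (SD, n = 8) in WT hearts (difference -0.15, standard error 0.05, adjusted p = 0.0704). Atp5g1 and Atp5g3 differed by 0.013 and 0.0060, with 95% intervals of -0.06 to 0.09 and -0.08 to 0.09.

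Complex III gave 2 of the 11 probes that were lower at an unadjusted p under 0.05. Uqcrc1, a core protein of its matrix side, read 14.51, 14.52, 14.46 and 14.42 in female cs-ERα-/- hearts, against 14.57, 14.53, 14.62 and 14.48 in female WT hearts. In male cs-ERα-/- hearts it read 14.46, 14.47, 14.46 and 14.51, against 14.58, 14.63, 14.57 and 14.59 in male WT hearts. Every male cs-ERα-/- heart was below every male WT heart, while the females overlapped. The difference was -0.10 (standard error 0.03, 95% interval -0.16 to -0.04, adjusted p = 0.0767). Cyc1, the cytochrome c1 that reduces cytochrome c, averaged 13.87 ± 0.07 (SD, n = 8) in cs-ERα-/- hearts against 13.98 ± 0.07 (SD, n = 8) in WT hearts (difference -0.10, adjusted p = 0.109). Its separation lay in females, with 13.87, 13.87, 13.83 and 13.78 in cs-ERα-/- hearts, against 13.92, 13.89, 14.01 and 13.99 in WT hearts.

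Complex IV holds isoform pairs in which the heart and skeletal muscle form stands beside a widely expressed form. Among the muscle forms, Cox7a1 averaged 15.49 ± 0.11 (SD, n = 8) in cs-ERα-/- hearts against 15.61 ± 0.05 (SD, n = 8) in WT hearts (difference -0.11, adjusted p = 0.156). Cox6a2 averaged 15.60 ± 0.07 (SD, n = 8) in cs-ERα-/- hearts against 15.51 ± 0.07 (SD, n = 8) in WT hearts (difference 0.08, adjusted p = 0.23), and Cox8b differed by 0.029 (95% interval -0.04 to 0.10). Cox7a1 of the fourth male cs-ERα-/- heart, at 15.72, was above every other heart, and the other 3 male cs-ERα-/- hearts read 15.37 to 15.44. Without that heart, picked here because its value was seen, the Cox7a1 difference was -0.16 (adjusted p = 0.00852 from limma). As its value ran against the difference, leaving it out had to enlarge the difference. With any other single array left out, Cox7a1 did not pass. Among the widely expressed forms, Cox7a2 differed by 0.14 (95% interval -0.01 to 0.29), Cox6a1 by 0.0025 at its brightest probe (-0.08 to 0.08) and Cox8a by -0.030 (-0.12 to 0.06). Cox4i1, the usual form of subunit 4, differed by -0.0075, with a 95% interval of -0.08 to 0.06.

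In complex II, Sdhb carries the iron-sulfur clusters and Sdhc and Sdhd anchor the enzyme in the membrane. Sdhc averaged 14.30 ± 0.06 (SD, n = 8) in cs-ERα-/- hearts against 14.38 ± 0.05 (SD, n = 8) in WT hearts (difference -0.08, adjusted p = 0.258). Sdhd averaged 8.98 ± 0.33 (SD, n = 8) in cs-ERα-/- hearts against 8.75 ± 0.16 (SD, n = 8) in WT hearts (difference 0.24, adjusted p = 0.258), with 1 female cs-ERα-/- heart at 9.62 and the other 15 hearts between 8.40 and 9.22. The 3 Sdhb probes differed by -0.05, -1e-04 and 0.20, and none had an unadjusted p under 0.05. Cycs, the electron carrier cytochrome c, showed how far probes of 1 gene can part: its brightest probe differed by 0.0035 (95% interval -0.11 to 0.12) and the other, a dim one, by 0.32 (0.07 to 0.56, adjusted p = 0.152).

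Within males, 1 member probe passed, Ndufv3, an accessory subunit of the NADH-oxidizing arm of complex I. Its share, 1.03% of 97 probes, stood beside 0.955% of all tested probes, or 0.351% that were lower. The probe read 14.23, 14.02, 14.21 and 14.13 in male cs-ERα-/- hearts, against 14.38, 14.30, 14.48 and 14.50 in male WT hearts, and fell by 0.27 on the log2 scale (fold 0.831, standard error 0.06, 95% interval -0.39 to -0.14, adjusted p = 0.0294 from limma). In females it read 14.24, 14.34, 14.36 and 14.50 in cs-ERα-/- hearts, against 14.38, 14.26, 14.30 and 14.34 in WT hearts, and these groups overlapped throughout. A second probe, the brightest of Ndufv3, read 14.67, 14.56, 14.67 and 14.60 in male cs-ERα-/- hearts, against 14.74, 14.81, 14.82 and 14.82 in male WT hearts (difference -0.17, adjusted p = 0.087). The remaining, dim Ndufv3 probe differed by -0.24 in males (95% interval -0.57 to 0.09, adjusted p = 0.595). The call was lost (0 member probes) with median scaling of the arrays, with no probe filter, without the intensity trend and in the ordinary model, and without any of 5 single male arrays (cs-ERα-/- 2 and 4, WT 1, 3 and 4), where its adjusted p ran between 0.0519 and 0.128.

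Other complex I probes read lower in male cs-ERα-/- hearts without passing the test. At an unadjusted p under 0.05, 13 member probes were lower and 0 higher (13.4%, against 12% of all tested probes either way and 5.67% of them lower), and 10 of the 13 read complex I. Ndufb7, an accessory subunit of the membrane arm, read 11.33, 11.39, 11.39 and 11.33 in male cs-ERα-/- hearts, against 11.42, 11.65, 11.47 and 11.61 in male WT hearts (difference -0.18, adjusted p = 0.165). Ndufa5, an accessory subunit of the matrix arm, read 14.74, 14.66, 14.78 and 14.81 in male cs-ERα-/- hearts, against 14.87, 14.87, 15.01 and 14.89 in male WT hearts (difference -0.17, adjusted p = 0.137). Neither pair of groups overlapped. In all, 10 member probes had male cs-ERα-/- hearts wholly below male WT hearts (10.3%, against 3.33% of all tested probes), and 0 wholly above. They read Ndufv3 (both bright probes), Ndufa5, Ndufb7, Ndufs4, Ndufa8, Uqcrc1, Atp5g2, Ndufa4 and Atp5l, of which Ndufs4, Ndufa8, Ndufa4 and Atp5l are named because their values were seen. The Ndufa8 probe that separated the males is not its brightest, and at the brightest they overlapped. Ndufs4, an accessory subunit whose loss causes Leigh syndrome in people, has 4 tested probes, and only its brightest (difference -0.14) separated the males. The others differed by -0.055, 0.10 and 0.027 in males.

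**Figure D2:**
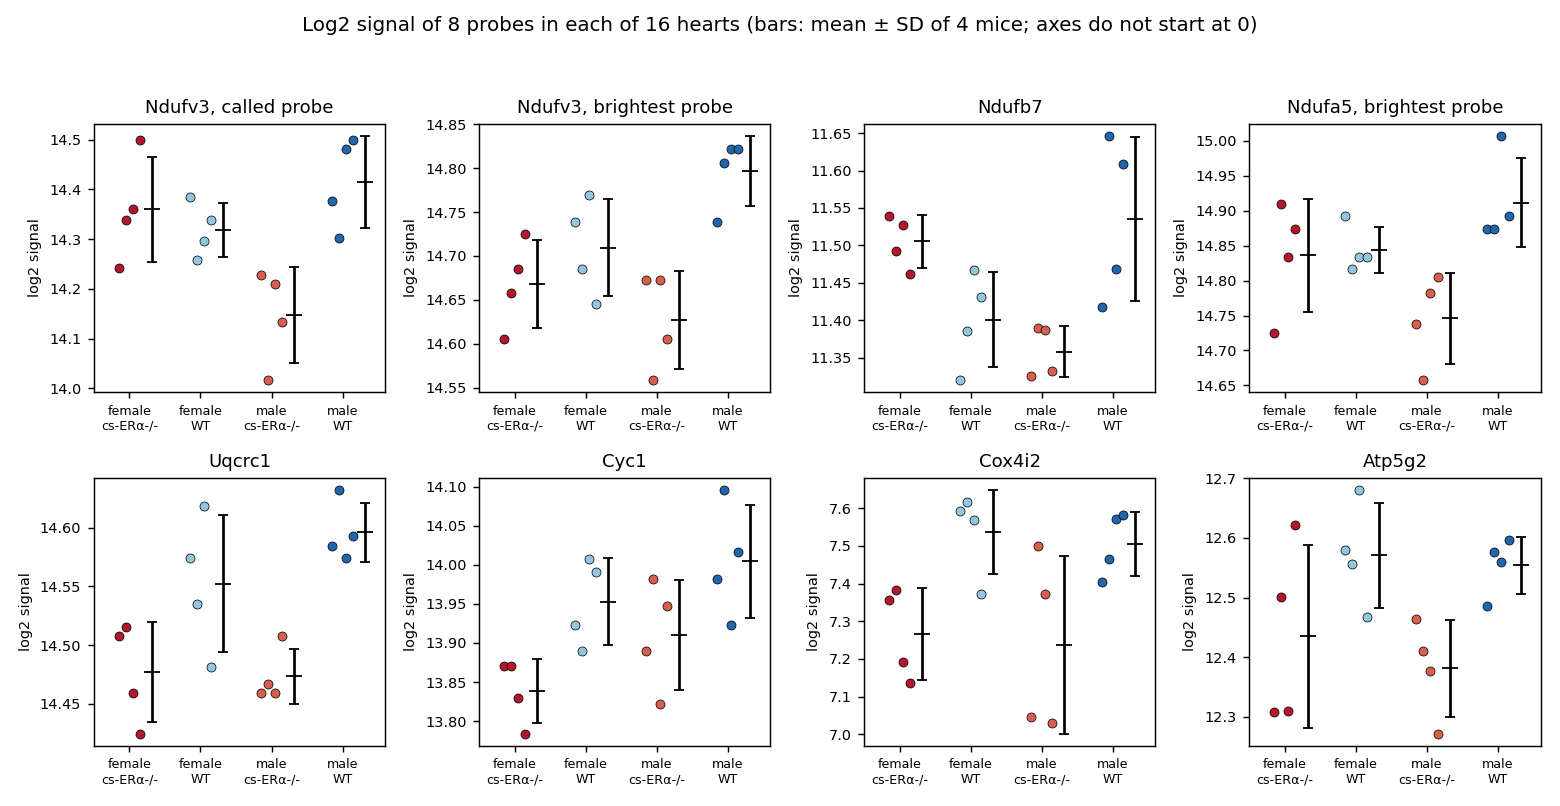
Log2 signal of 8 probes in each of the 16 hearts, as points for the 4 mice of a group with their mean and SD beside them, in the groups female cs-ERα-/-, female WT, male cs-ERα-/- and male WT, on axes that do not start at 0. Male cs-ERα-/- hearts lie wholly below male WT hearts for Ndufv3, Ndufb7, Ndufa5, Uqcrc1 and Atp5g2, and female cs-ERα-/- hearts wholly below female WT hearts for Cyc1.

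The lower complex I readings of male cs-ERα-/- hearts rested in part on single hearts. The median difference over the 40 complex I probes in males was -0.055, beside -0.0032 over all tested probes, and 28 of 40 were negative, against 51% of all tested probes. Without the first male cs-ERα-/- heart it was -0.024, and, in counts added after the data were seen, the complex I probes lower at an unadjusted p under 0.05 numbered 6 (15%, against 5.07% of all tested probes) in place of 10 (25%, against 5.67%). Without the second male WT heart they numbered 5 (12.5%, against 4.54%), and with arrays of males only in the model 6 (15%, against 5.5%). With median scaling of the arrays 2 lay below that p (5%, against 3.1%), while the median difference was -0.12.

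Promoters of 3 genes that read lower in male cs-ERα-/- hearts are shown because nuclear respiratory factor 1, a known activator of respiratory chain genes, binds a palindromic motif, spelled here as GCGCA, any base, then GCGC. Sequences are the 150 bases before the annotated start, 5′ to 3′, from RefSeq on GRCm38.p6, with any match to the motif on either strand in capitals.
Ndufv3, chr17:31519965-31520114, plus strand: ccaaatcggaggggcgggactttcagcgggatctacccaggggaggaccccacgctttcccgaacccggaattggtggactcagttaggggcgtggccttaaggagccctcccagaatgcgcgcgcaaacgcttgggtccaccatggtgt
Atp5g2, chr15:102671048-102671197, minus strand: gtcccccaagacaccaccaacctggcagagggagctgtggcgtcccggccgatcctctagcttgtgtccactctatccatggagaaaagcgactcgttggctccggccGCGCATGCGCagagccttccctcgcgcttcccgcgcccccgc
Ndufa5, chr6:24527691-24527840, minus strand: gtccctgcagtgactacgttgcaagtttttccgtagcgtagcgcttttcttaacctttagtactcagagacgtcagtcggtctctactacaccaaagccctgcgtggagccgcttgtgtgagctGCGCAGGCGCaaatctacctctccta

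The motif lay at positions -42 to -33 in Atp5g2 and -26 to -17 in Ndufa5, at the second of its 2 start sites, counted back from the base before the start at -1, and the Ndufv3 window held no match. Of the 87 member genes 71 had a promoter in the table, and 16 of these (22.5%) held the motif in the 300 bases that run from 250 before to 50 after a start, against 5.19% of all 27025 genes and 7.17% of protein-coding genes. Uqcrc1 held 2 matches, at positions 5 to 14 and 30 to 39 after its start. The motif AAGATGGCG of YY1 was found in 7 of the 71 (9.86%, against 1.64% of all genes), TCAAGGTCA of the estrogen-related receptors in 2 (2.82%, against 0.466%), CCGGAAGT of GABP in 5 (7.04%, against 4.31% of all genes and 5.69% of protein-coding genes), GGGCGG of Sp1 in 33 (46.5%, against 38.2% and 49.2%), and the estrogen response element, GGTCA and TGACC set 3 bases apart, in 0, against 0.074% of all genes. These matches describe the sequence only. Member genes with the nuclear respiratory factor 1 motif had a median genotype difference of -0.015 (15 tested genes), and those without it -0.021 (52).

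Within females 0 member probes passed in limma and 0 in the ordinary model, against 0.71% of all tested probes in limma, and 4 had an unadjusted p under 0.05 (4.12%, against 10.6%). These were Cox6a2 and Sdhd, at higher levels in cs-ERα-/- hearts, and Cox4i2 and Cyc1, at lower levels. Cox6a2 read 15.55, 15.66, 15.67 and 15.55 in female cs-ERα-/- hearts, against 15.46, 15.52, 15.49 and 15.48 in female WT hearts (difference 0.12, adjusted p = 0.388). Cox7a1 read 15.53, 15.45, 15.52 and 15.52 in female cs-ERα-/- hearts, against 15.61, 15.59, 15.63 and 15.67 in female WT hearts (difference -0.12, adjusted p = 0.495). Both heart forms separated the genotypes in females, in opposite directions. With the Ndufs5-ps pseudogene above and Cyc1 below, 4 members did so in females (4.12%, against 5.99% of all tested probes). The median difference over all 97 members was 7e-04 in females and -0.038 in males, or -0.013 in males without the first male cs-ERα-/- heart.

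**Figure D3:**
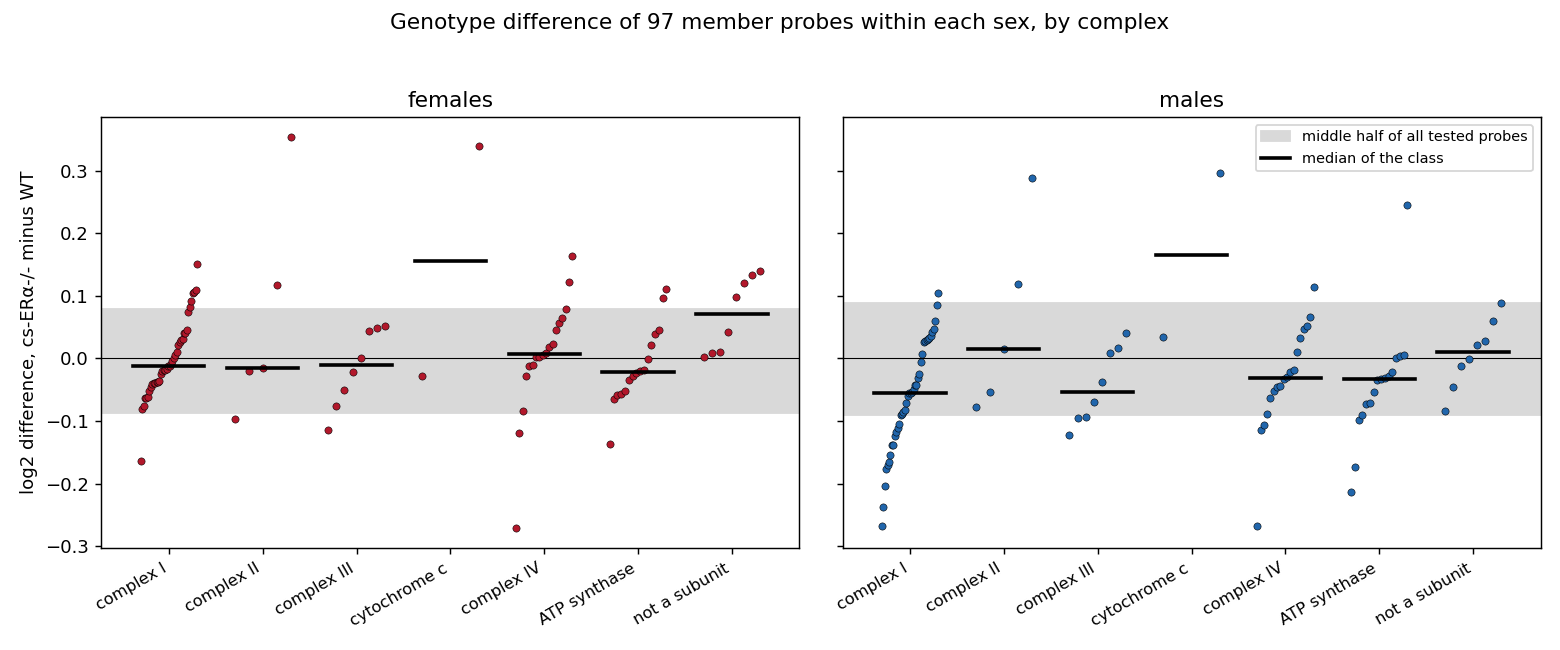
Log2 difference between cs-ERα-/- and WT hearts of each member probe, in females on the left and males on the right, by complex, with the median of each class as a bar and the interquartile range of all tested probes shaded grey. The bar of complex I lies at -0.012 in females and -0.055 in males.

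The difference between these effects was tested as an interaction, the effect in females minus that in males, and 0 member probes passed in limma and 0 in the ordinary model, as did 0% of all tested probes in limma. At an unadjusted p under 0.05 there were 6 members, all with a positive interaction (6.19%, against 1.94% of all tested probes that were positive). The Ndufv3 probe called in males had an interaction of 0.31 (95% interval 0.13 to 0.49, adjusted p = 0.999 from limma). Ndufb7 had one of 0.28 (0.12 to 0.45, adjusted p = 0.999). The brightest Ndufv3 probe had an interaction of 0.13 (-0.007 to 0.26) and is not among the 6. For Ndufb7 the order of the genotypes turned round between the sexes, with 11.54, 11.49, 11.53 and 11.46 in female cs-ERα-/- hearts, against 11.32, 11.39, 11.47 and 11.43 in female WT hearts, which overlapped at a single WT heart. Ndufa5 (0.16), Ndufs8 (0.15), Ndufs4 (0.14) and Ndufs5-ps (0.22) made up the 6, of which Ndufs8, Ndufs4 and Ndufs5-ps are named because their values were seen. The second Ndufa5 probe had an interaction of -0.10 (95% interval -0.49 to 0.29). Over all members the median interaction was 0.039, beside 5e-04 over all tested probes, and it was 0.014 without the first male cs-ERα-/- heart and 0.022 without the fourth female cs-ERα-/- heart. Over complex I it was 0.051, or 0.021 without the first male cs-ERα-/- heart.

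Levels in female hearts were close to those in male hearts. Averaged over the genotypes, 0 of 97 members passed in limma and 0 in the ordinary model, against 1.27% of all tested probes in limma, and 1 had an unadjusted p under 0.05 (1.03%, against 12.9%). This was a Sdhb probe, at 12.99 ± 0.06 in female cs-ERα-/- and 13.01 ± 0.06 in female WT hearts, against 12.85 ± 0.11 in male cs-ERα-/- and 12.92 ± 0.08 in male WT hearts (SD, n = 4 each). Its difference was 0.12 (standard error 0.04, adjusted p = 0.201 from limma), whereas the brightest Sdhb probe differed by -0.012. Ndufa9 and Ndufa7, accessory subunits of the matrix arm of complex I, came next with differences of -0.07 and 0.06 (adjusted p = 0.446 and 0.463). The 95% interval lay within 1.2-fold for 90 of 97 members (92.8%, against 62.2% of all tested probes).

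Set against males of their own genotype, females had 0 members past the test in cs-ERα-/- hearts (0.278% of all tested probes) and 0 in WT hearts (0.367%), in limma as in the ordinary model. At an unadjusted p under 0.05 there were 3 in cs-ERα-/- hearts, all higher in females, and 1 in WT hearts, lower in females. The 3 were the Ndufv3 probe called in males (difference 0.21, adjusted p = 0.215), Ndufb7 (0.15, adjusted p = 0.472) and a Sdhb probe (0.14, adjusted p = 0.487). That Ndufv3 probe and Ndufb7 separated the sexes (2.06% of members, against 4.37% of all tested probes). The brightest probes of Ndufv3 and Sdhb differed by 0.041 and -0.027, without passing the unadjusted p. The shares past the unadjusted p, 3.09% and 1.03%, stood beside 8.57% of all tested probes in either genotype. In WT hearts the probe was Ndufb7, at -0.13 (adjusted p = 0.505). In cs-ERα-/- hearts 73 of the 97 differences were positive and 24 negative, where 50.1% of all tested probes were negative, and in complex IV 17 of 18 were positive, with medians of 0.030 and 0.035. Without the first male cs-ERα-/- heart 52 of the 97 and 9 of the 18 were positive, with medians of 0.0095 and 0, and without the fourth female cs-ERα-/- heart 60 and 15 were, with medians of 0.011 and 0.031. Other settings enlarged the counts over all members. Without the fourth male cs-ERα-/- heart 78 and 16 were positive, with medians of 0.038 and 0.046. With median scaling 96 and 18 were, with medians of 0.136 and 0.145, where 28.9% of all tested probes were negative. These counts were added after the data were seen. These comparisons share their hearts with those by genotype.

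Mice of a group differed about as much as the groups. For each mouse the median over the 97 members of the log2 signal minus the mean of that probe over 16 arrays ran between -0.029 and 0.043 in female cs-ERα-/- hearts, between -0.010 and 0.024 in female WT hearts, between -0.087 and 0.013 in male cs-ERα-/- hearts and between -0.0074 and 0.052 in male WT hearts. The lowest of the 16, in complexes I (-0.11), III (-0.067) and IV (-0.13) too, was the first male cs-ERα-/- heart. In complex III the 4 male cs-ERα-/- hearts lay between -0.067 and 0.0076, below the 4 male WT hearts at 0.014 to 0.087. Other complexes and sexes overlapped, and these levels were not tested, since the probes of an array share its RNA and hybridization.

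**Figure D4:**
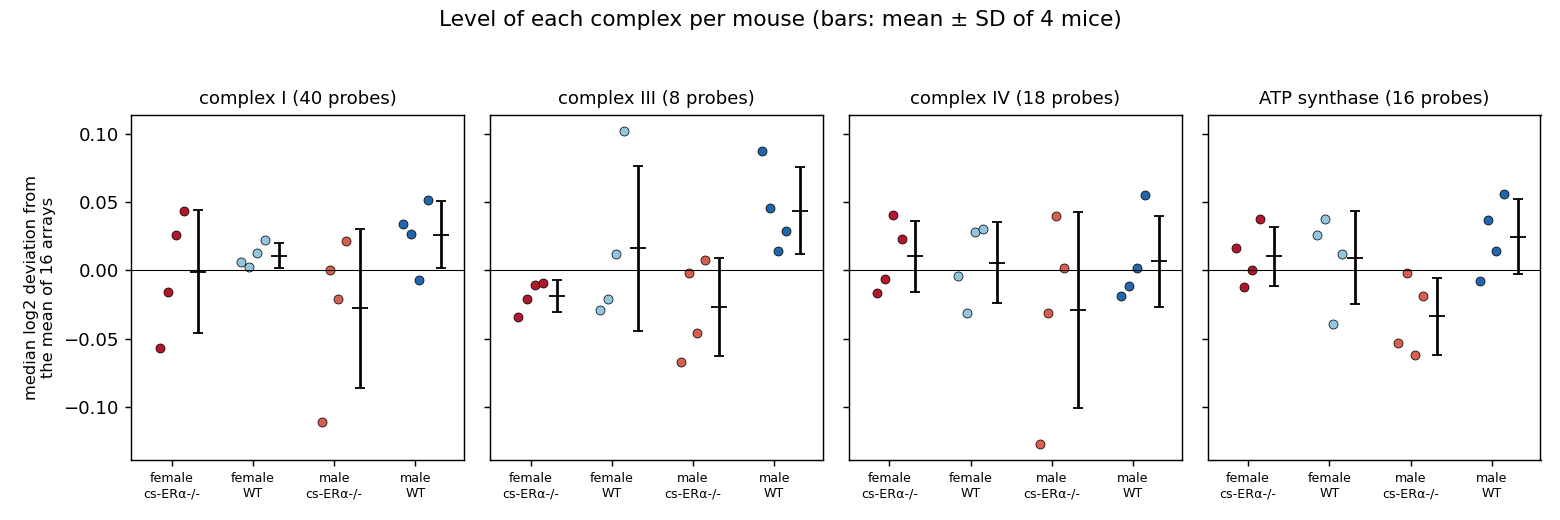
Level of complexes I, III and IV and of ATP synthase in each heart, as the median over the probes of a complex of the log2 deviation from the mean of 16 arrays, with the mean and SD of the 4 mice of a group. The first male cs-ERα-/- heart is lowest in complexes I, III and IV, and male cs-ERα-/- and male WT hearts do not overlap in complex III.

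Members also differed in how steadily they read. The SD between mice of a group was over 0.2 for 13 of the 97 probes, all of them below percentile 90 in mean signal, led by Cox6b2 (0.48), the testis form of a complex IV subunit, Cox7b (0.39) and Ndufb4 (0.36), named because their values were seen. Several are further probes of genes whose brightest probe was steady, such as Ndufv3, Ndufa5, Sdhb and Cycs.

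Few genes of the pathways that feed or build the chain passed the test, beside 3.74% of all tested probes for genotype and 1.27% for sex. With 8 to 12 tested genes, a list is too short for its share to be told apart from these. Of 12 tested genes for the assembly of complexes III and IV, 1 rose in cs-ERα-/- hearts: Cox19, which helps to bring copper to complex IV, at 11.43 ± 0.08 (SD, n = 8) in cs-ERα-/- hearts against 11.18 ± 0.11 (SD, n = 8) in WT hearts (difference 0.25, adjusted p = 0.000543), and 10 of the 12 had a negative difference, against 52.4% of all tested probes. None of 8 genes of coenzyme Q synthesis, 12 regulators of mitochondrial biogenesis, 12 genes of the tricarboxylic acid cycle and 8 ATP and phosphate carriers passed for genotype in limma, where 3, 2, 2 and 2 of them had an unadjusted p under 0.05, beside 17.6% of all tested probes. Among the regulators 9 of 12 were negative (median -0.049), with Ppargc1a, the coactivator PGC-1α, at -0.0077 (adjusted p = 0.973) and Esrra, which encodes ERRα, at -0.037 (adjusted p = 0.707), both named for their role and not for their values. For sex, Idh3b, a subunit of isocitrate dehydrogenase, was higher in females (0.20, adjusted p = 0.0373) and 0 genes of the other 4 lists passed, where 7 had an unadjusted p under 0.05, beside 12.9% of all tested probes.

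Most myeloid markers rose in cs-ERα-/- hearts, and no cardiomyocyte marker passed the test. Over all tested probes 3.74% passed for genotype and 17.6% had an unadjusted p under 0.05. Of 10 tested cardiomyocyte genes 0 passed in limma and 0 had an unadjusted p under 0.05 (median difference 0.0092). A summed level is the log2 of the signals of a list added on the linear scale, so the brightest genes weigh most. For cardiomyocyte genes it was 18.28 to 18.31 in female cs-ERα-/- hearts, 18.28 to 18.34 in female WT hearts, 18.25 to 18.37 in male cs-ERα-/- hearts and 18.26 to 18.30 in male WT hearts. Of 10 tested myeloid markers 7 rose in cs-ERα-/- hearts (median 0.34), among them Lyz2 (0.50, adjusted p = 0.000405) and Mrc1 (0.38, adjusted p = 0.00036), whereas Cd68, Csf1r, Emr1 and Ctss did not pass the detection filter. Their summed level was 13.53 to 13.63 in female cs-ERα-/- hearts, 13.02 to 13.34 in female WT hearts, 13.57 to 13.91 in male cs-ERα-/- hearts and 13.27 to 13.55 in male WT hearts. Of 7 fibroblast markers Dcn (0.18) and Dpt (0.24) rose, and of 7 endothelial markers 0 passed and 1 had an unadjusted p under 0.05, all 7 with a negative difference, against 52.4% of all tested probes. Of 3 skeletal muscle markers Tnni2 rose by 0.68 and of 2 atrial markers Nppa by 1.02, with summed skeletal levels of 8.78 to 8.91 in female cs-ERα-/- hearts, 7.88 to 8.37 in female WT hearts, 8.06 to 8.97 in male cs-ERα-/- hearts and 7.86 to 8.28 in male WT hearts. Of 2 adipose markers 0 passed and 1 had an unadjusted p under 0.05. For sex, 1 marker of these 7 cell lists passed, the fibroblast gene Lum, higher in females (0.56), beside 1.27% of all tested probes. The part of these cells in the member levels was not tested.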

How the data were processed

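Total RNA of 16 mouse hearts was hybridized to Illumina MouseRef-8 v2 arrays, read with Genome Studio by the authors, who averaged the beads of each probe. The deposited signals are intensities on a linear scale, not normalized between arrays. Some fall below 0, so that a background had been subtracted, which the methods do not state. Each deposited signal has a detection p-value against negative control beads. Deposited values normalized by cubic spline, intensities on a linear scale as well, served as an alternative. The authors' methods describe a log2 export, and the log2 values used here were computed anew.

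The neqc function (offset 16) of limma 3.58.1 in R 4.3.3 corrected the background, normalized the arrays by quantiles and took log2. Probes with a detection p-value under 0.05 on at least 3 of 4 arrays of any group entered a model that gave each group its own mean, with moderated variances and an intensity trend. From it 7 contrasts were taken, with Benjamini-Hochberg adjustment over 12246 probes. The model was tested on simulated data. The 16 samples were divided between chips, but the chip of an array is in none of the labels, so no chip term could be used. The labels do not say more of replicates than a number, which p-values take as separate mice. The number of arrays limits the precision.

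Alternatives were the deposited normalized values, no background correction, median scaling, other probe filters, no intensity trend, an ordinary model without moderation, the replicate number as a block, a residual component as covariate, each array left out, arrays of 1 sex only and the brightest probe per gene. The residual component was taken from the residuals of the main model, so it left the differences unchanged and took up part of the spread. Genes named in the text were those past the test in any contrast, the 3 with the smallest p for genotype, sex, interaction and genotype in each sex, Uqcrc1, Cox7a1, complex II, Cyc1, Cycs and the isoform sets, with up to 3 called genes of each other list, and genes named outside this rule are marked. A gene with several probes is given by its brightest unless stated. The members, lists and tests were chosen with earlier results of these data known. Promoters came from RefSeq (GRCm38.p6), matched by the Entrez gene identifier annotated for each symbol.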

Additional observations from a re-analysis of the deposited data

Results flagged for a closer look

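Of 120 sets of values of 4 mice, 116 from the named probes and 4 from the median over all members, 6 held a mouse that stood far from the other 3 of its group, and about 1 in 20 does so by chance. In female cs-ERα-/- hearts these were Cox7a1 of mouse 2 (15.45, the others from 15.52 to 15.53), the brightest Sdhb probe of mouse 2 (12.97, the others from 13.17 to 13.20) and the second Ndufa5 probe of mouse 4 (9.25, the others from 8.70 to 8.76). In female WT hearts Cox8a of mouse 3 stood at 13.25, the others between 13.06 and 13.09. In male cs-ERα-/- hearts Uqcrc1 of mouse 4 stood at 14.51, the others between 14.46 and 14.47. In male WT hearts the brightest Ndufa5 probe of mouse 3 stood at 15.01, the others between 14.87 and 14.89.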

How the results depend on the processing

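Among 3683 comparisons of 29 named probes with their alternatives, 3663 kept the side of the threshold, 9 lost it and 11 gained it. In 202 the sign changed, in each case for a probe with an unadjusted p of at least 0.05. For genotype, 0 members passed, but 2 (2.06%, beside 2.64% of all tested probes) in the ordinary model (Ndufv3, adjusted p = 0.0494, and Uqcrc1, 0.0257), 1 (1.03%, beside 5.1%) with a residual component as covariate (Cox4i2, 0.0287) and 0 to 4 with single arrays left out. The 4 (4.12%, beside 3.75%) came without female WT 4 (Atp5g2 0.0492, Cox4i2 0.0393, Cycs 0.0443 and Uqcrc1 0.0492, limma), and 1 each without female cs-ERα-/- 4 (Atp5g2 0.0177), male cs-ERα-/- 2 (Cox4i2 0.0212) and male cs-ERα-/- 4 (Cox7a1 0.00852), beside 3.39%, 3.28% and 3.2% of all tested probes. Members lower at an unadjusted p under 0.05 numbered 11, against 2 with median scaling (2.06%, beside 3.95% of all tested probes), a count chosen after seeing the data. In males the 1 call, Ndufv3, became 0 with median scaling (adjusted p = 0.658), no probe filter (0.0658), no intensity trend (0.131) and the ordinary model (0.11), and leaving out single arrays gave 0 to 1. The cause was not tested.

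Median scaling moved the medians over all members to 0.061 for sex, 0.12 for the interaction, 0.044 in females and -0.10 in males, where those of all tested probes were 0.041, 0.058, 0.013 and -0.039, and for genotype it gave -0.032 in place of -0.015 (all tested probes -0.0145 in place of -0.0058). It cut the probes called for genotype to 131, against 458, and for sex to 79, against 155, and raised the share of higher calls to 77.1%, against 65.1%, for genotype and to 65.8%, against 50.3%, for sex. Over all tested probes, calls in females numbered 87, against 31 with median scaling, 32 without the intensity trend, 26 in the ordinary model and 136 with the residual component. In males they numbered 117, against 46 with median scaling, 56 without the trend and 38 in the ordinary model. The ordinary model called 80 for sex, 28 (against 45) for sex in WT hearts and 19 (against 34) for sex in cs-ERα-/- hearts, and the residual component gave 70 for sex in WT hearts.

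The labels do not say that a replicate number marks mice with anything in common. Same-numbered arrays correlated in their deviations at -0.107 to 0.204, with 7 of 24 pairs over 0.1, 6 of these being the 6 pairs of number 4, and 9 of 16 arrays correlated best with their own number. With the number as a replicate block 1 member passed for genotype (Cox4i2, 0.0404), beside 537 probes in all (1.03% and 4.39%), and the Ndufv3 probe called in males had an adjusted p of 0.0161 there.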
